A study of Homo sapiens with 12 samples.

Results

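The background of an RNA-editing recorder was examined in 6 of the 12 libraries of an RBPscan experiment, a method that reads binding of a protein to RNA from edits left on a reporter transcript. These were the 3 libraries titled ADARcdMUT-1000ng, where the editing domain was present with no Pumilio protein attached, and the 3 libraries of the fusion hsPUM2-ADARcdMUT taken as non-induced. Members were the 8-base elements listed in all 12 libraries together with an entry named EMPTY, which gave 1006 of the 1022 entries listed in any library. Every element carried its own count of reads and of edits, so the background could be read for each element and set against the bases it is made of.

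All libraries came from HEK293T, an established human embryonic kidney cell line whose genotype is given as WT, and all carried the same pool of recorder mRNAs. In the fusion libraries the protein joins human PUM2 to the domain called ADARcdMUT, and its expression was switched on by doxycycline. The non-induced libraries therefore belong to the fusion system without the inducer, whereas the ADARcdMUT libraries hold the domain without PUM2. Whether any fusion protein was made without the inducer was not tested, and no library without a construct of the editing domain was analysed here. The labels give amounts of 1000 ng for ADARcdMUT and of 25 ng and 250 ng for the induced fusion, and what was weighed is not stated in the sources used here. Each group had 3 replicates, described by the submitters as biological. The 6 background libraries held between 11235321 and 12994269 reads, and the median number of reads per element lay between 10218 and 12253.

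ADAR enzymes convert adenosine to inosine in base-paired RNA, and inosine is read as guanosine after reverse transcription and sequencing. PUM2 is a Pumilio protein, which binds single-stranded RNA at an element that begins with UGUA and ends with AUA with any base between them, written TGTA, any base, ATA in the DNA letters of the files. A recorder hairpin placed next to the element offers adenosines to the domain, so editing of the hairpin reports how often the fused protein was near. Editing that occurs without a bound Pumilio protein is the floor above which binding has to be seen.

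The elements below carry the results that follow. All are written 5′ to 3′ in DNA letters, and base 1 is the first base printed. First come the 4 forms of the Pumilio consensus, each followed by the element that differs from it by the change T3G. Capitals mark positions 3 and 5, since the change at position 3 is compared below for each base at position 5.
consensus with A at position 5: tgTaAata
its T3G form: tgGaAata
consensus with C at position 5: tgTaCata
its T3G form: tgGaCata
consensus with G at position 5: tgTaGata
its T3G form: tgGaGata
consensus with T at position 5: tgTaTata
its T3G form: tgGaTata
Next come the 10 elements with the highest editing level in the non-induced libraries, in order from the highest. Capitals mark every G, because G was the base whose number went with a higher background.
highest 1: tGtGtGta
highest 2: ataGctGt
highest 3: attGatGt
highest 4: tGtGtGtG
highest 5: tGGatatG
highest 6: ataGacGt
highest 7: atacGtGt
highest 8: tGGataGa
highest 9: ataGttGt
highest 10: tGGatata
The 10 elements with the lowest level in the same libraries follow, from the lowest upwards, again with each G in capitals.
lowest 1: cGtGcata
lowest 2: tGtGccta
lowest 3: GGtaaGta
lowest 4: tctaaatt
lowest 5: tctattta
lowest 6: aGtacaca
lowest 7: tGGacGta
lowest 8: aGGacata
lowest 9: tctatata
lowest 10: tGaaccta

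The first question was how large the floor was in each group. The editing level is the number of edits divided by the number of recorder adenosines read, 7 per read, and is given in percent. The median level over elements was 1.73%, 1.93% and 1.81% in the non-induced libraries and 2.06%, 1.96% and 1.82% in the ADARcdMUT libraries. The groups overlapped, since ADARcdMUT replicate 3 lay below non-induced replicate 2. The ratio of the group means was 1.07, the difference was 0.123 points, and an exact permutation test over the 6 libraries gave p = 0.20, adjusted p = 0.45 over the 3 measures compared; 3 against 3 libraries cannot give less than 0.10. Without ADARcdMUT replicate 1 the difference was 0.0661 points, without non-induced replicate 1 it was 0.0773 points and without ADARcdMUT replicate 3 it was 0.186 points.

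The level is made of how many reads were edited and how many edits an edited read carried. Of the reads of the median element, 6.94%, 7.12% and 6.90% had at least 1 edit in the non-induced libraries and 7.54%, 7.12% and 6.87% in the ADARcdMUT libraries. ADARcdMUT replicate 1 was the highest and replicate 3 of the same group the lowest of all 6, and the difference of 0.191 points gave p = 0.70 by the exact permutation test. The difference was 0.00811 points without ADARcdMUT replicate 1 and 0.343 points without ADARcdMUT replicate 3. An edited read carried a median of 1.74, 1.90 and 1.84 edits in the non-induced libraries and 1.89, 1.92 and 1.86 in the ADARcdMUT libraries, again with overlap (difference 0.0636, exact permutation p = 0.30). This difference was 0.0226 without non-induced replicate 1 and 0.0998 without non-induced replicate 2. Both components stood below those of the induced fusion. At 250 ng the share of edited reads was 22.3% ± 0.403 (SD, n = 3) and the edits per edited read were 2.48 ± 0.0176 (SD, n = 3).

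The EMPTY entry, whose sequence is not given in the files, showed the same floor. Its level was 1.89%, 2.10% and 2.04% in the non-induced libraries and 2.17%, 2.19% and 1.99% in the ADARcdMUT libraries. It lay above the median element in 6 of 6 background libraries, by 0.12 in ADARcdMUT and 0.14 in non-induced as log2 odds of editing. At 250 ng of fusion it lay at -0.05 relative to the median element of those libraries. Between 2.41% and 2.57% of the reads in each background library came from EMPTY.

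Elements differed little from one another in the background. Within a library, the lowest 5% of elements lay below 1.49% to 1.67% editing and the highest 5% above 2.01% to 2.48%, depending on the library. As log2 odds relative to the library median, the spread of elements beyond replicate error was 0.0831 (SD) in the non-induced group and 0.0821 in ADARcdMUT, against replicate SDs within an element of 0.110 and 0.142. The spread between replicates thus exceeded the spread between elements in both groups. In the 250 ng libraries the order was the other way round, with an element SD of 0.131 and a replicate SD of 0.0363.

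The same elements nevertheless stood high or low in both groups. The group means of the relative level correlated with a Pearson r of 0.559 and a Spearman rho of 0.455 across 1005 elements, which share libraries, amplification and recorder and are not independent replicates. From the spread between replicates, an r of 0.562 would be reached if both groups had the same true order. For single libraries, the 9 pairs of one ADARcdMUT and one non-induced library gave r of 0.231 to 0.394, whereas pairs within ADARcdMUT gave 0.226 to 0.291 and pairs within non-induced 0.340 to 0.407. A library therefore resembled the libraries of the other background group about as much as those of its own.

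For the share of edited reads the group means correlated with r = 0.668 across the 1005 elements, where the spread between replicates allows 0.660. For edits per edited read they correlated with r = 0.118, where it allows 0.0877. Elements differed less in that measure, with a log2 SD beyond replicate error of 0.0205 in ADARcdMUT and 0.00867 in non-induced against replicate SDs of 0.0841 and 0.0648, so a likeness in edits per read could hardly have been seen. The background order had little in common with that of the induced fusion. Pearson r was 0.0616 between non-induced and 250 ng and 0.0427 between ADARcdMUT and 250 ng, and Spearman rho was 0.0933 and 0.116. With 25 ng, rho was 0.227 for non-induced and 0.200 for ADARcdMUT. Pairs of induced libraries gave r of 0.714 to 0.939. The abundance of an element and its level correlated with r = 0.0724 in ADARcdMUT and 0.0648 in non-induced.

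Extreme elements carried over between the groups. The 10 highest elements of the non-induced group all lay among the 100 highest of ADARcdMUT, at ranks 2 to 37 of 1005, and 9 of them were above the median in all 3 ADARcdMUT libraries. Their level in ADARcdMUT exceeded the library median by 0.21 to 0.41 as log2 odds. All 10 had a G at position 3, 4 or 7, which 31.9% of all elements have. These positions were chosen after the values of the same libraries had been seen, so this is a description and not a test. Chosen in the opposite direction, the 10 highest of ADARcdMUT all lay among the 23 highest of non-induced, and 7 elements were in both lists. A G at position 3, 4 or 7 was not particular to the high end, as 4 of the 10 lowest elements of non-induced and 2 of the 10 lowest of ADARcdMUT also had one.

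The element TGTGTGTA, a change of the consensus at 2 positions, was the highest of the non-induced group. Its level was 2.22%, 2.65% and 2.42% in the non-induced libraries and 2.53%, 2.47% and 2.35% in ADARcdMUT. ATAGCTGT, a variant of the consensus written backwards, gave 2.42%, 2.40% and 2.42% in non-induced and 2.37%, 3.11% and 2.30% in ADARcdMUT. Every one of these 12 values lay above the median of its library, and the groups overlapped for both elements. The highest element of ADARcdMUT was ATATGTGT, likewise of the reversed family, with 2.74% ± 0.465 (SD, n = 3) there and 2.21% in non-induced.

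The low end was shared less. Of the 10 lowest elements of the non-induced group, 7 lay among the 100 lowest of ADARcdMUT, and 8 were below the median in all 3 ADARcdMUT libraries. Chosen from ADARcdMUT, 4 of the 10 lowest lay among the 100 lowest of non-induced, and 2 elements were in both lists of 10. Over longer lists, the 100 highest of each group had 52 elements in common and the 100 lowest had 27. The extremes partly kept their side in the 250 ng libraries. Of the 10 highest of non-induced, 9 had a mean above the median there, against 1 of the 10 lowest. For the lists of ADARcdMUT these counts were 8 and 3.

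CGTGCATA was the lowest element of both groups. Its level was 1.27%, 1.49% and 1.23% in the non-induced libraries and 1.20%, 1.21% and 1.31% in ADARcdMUT, below the median in all 6. Fewer of its reads were edited, 5.21% in non-induced and 5.04% in ADARcdMUT. TGTGCCTA gave 1.34%, 1.67% and 1.31% in non-induced and 1.54%, 1.5% and 1.30% in ADARcdMUT, also below the median in all 6. Both low elements hold G at position 4 followed by C at position 5, so a G at position 4 did not by itself mark a high element. GGTAAGTA stood low in another way. Of its reads 5.28% were edited in ADARcdMUT and 4.95% in non-induced, yet an edited read carried 2.22 and 2.11 edits, more than the median element.

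The consensus elements, which the fusion is built to find, were not among the highest in the background. TGTATATA gave 2.0%, 1.63% and 1.79% in the non-induced libraries and 1.37%, 1.69% and 1.75% in ADARcdMUT, where it ranked 998 of 1005. TGTACATA ranked 969 in ADARcdMUT but 307 in non-induced, where it lay above the median in 3 of 3 libraries. TGTAAATA ranked 754 and TGTAGATA 477 in ADARcdMUT. The 4 consensus elements together had a median relative level of -0.12 ± 0.020 (SD, n = 3) in ADARcdMUT and -0.025 ± 0.13 in non-induced. This median lay below 0 beyond its SD between libraries in ADARcdMUT and within it in non-induced. The elements behind it differed, with ADARcdMUT means from -0.29 for TGTATATA to 0.00016 for TGTAGATA. Of the 4, 0 lay below the median in all 6 libraries, so a low standing was not shared by each. In the 250 ng libraries TGTATATA reached 13.9% ± 0.360 (SD, n = 3).

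Base composition was described next, as the change of the log2 odds per added base of a kind among the 8. The slope for G was 0.037, 0.036 and 0.030 in the non-induced libraries and 0.0053, 0.024 and 0.025 in ADARcdMUT, above 0 in 6 of 6. The ADARcdMUT slopes all lay below the non-induced ones, at 0.018 ± 0.011 against 0.034 ± 0.0038 (SD, n = 3), which gave an exact permutation p of 0.10, the smallest this design allows, and an adjusted p of 0.40 over the 4 bases. The difference in slope of -0.016 became -0.0093 without ADARcdMUT replicate 1, the library with the lowest slope. The slopes for A and for C were below 0 in 6 of 6 background libraries, and that for T was above 0 in 2 of 6. At 250 ng the slope for G was -0.0084 and that for T was 0.031, a different ordering of bases.

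In percent, the 140 elements with no G had a median level of 1.91% ± 0.139 in ADARcdMUT and 1.76% ± 0.078 in non-induced (SD, n = 3), and the 119 elements with 3 G had 1.99% ± 0.0935 and 1.90% ± 0.114. The step from no G to 3 G was about as large as the SD between libraries, and it was above 0 within each of the 6 libraries. The 20 elements with 4 G reached 1.96% and 1.87%. The homopolymer GGGGGGGG had 1.88% in ADARcdMUT and 1.82% in non-induced, near the median element, whereas CCCCCCCC had 2.0% and 2.12%. The number of G alone therefore did not order the elements at the G-rich end.

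Neighbouring bases gave a similar picture, though not for every pair with a G. The 186 elements holding GG exceeded those lacking it by a median of 0.039 ± 0.025 as log2 odds in ADARcdMUT and 0.068 ± 0.0055 in non-induced (SD, n = 3). Elements holding TG, GC, GA or AG likewise exceeded those lacking the pair in 6 of 6 libraries, for TG by 0.025 and 0.050. GT did so in 5 of 6, by 0.0083 in ADARcdMUT and 0.022 in non-induced. The 126 elements holding CG did not, at -0.013 and -0.00096, above 0 in 1 of 6. The reverse was found for AC, whose 280 elements lay 0.032 lower in ADARcdMUT and 0.039 lower in non-induced, and for AA and CA, each lower in 6 of 6. Of the 56 triplets held by at least 15 elements, TGG, AGC and GGA took the first 3 ranks in both groups. A change of T to G at position 3 turns the start TGTA into TGGA, which holds GG, TGG and GGA at once. Their values therefore share elements and were not separated from the effect of G at position 3, described below.

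Composition was then broken down by position. In each library an additive effect was fitted for each base at each of the 8 positions. Effects are relative to the mean of the 4 bases there, so that those at a position sum to 0. The fit has no separate term for the number of a base, so an effect of the number of G would enter the G effects of all positions. Over the 6 libraries the mean G effect was above 0 at every position, from 0.0032 at position 8 to 0.054 at position 3. These 32 effects correlated with r = 0.843 between the group means of ADARcdMUT and non-induced, and 23 had the same sign. They explained 12.5% to 13.9% of the variance among elements in the non-induced libraries and 6.69% to 9.12% in ADARcdMUT. Levels predicted from the ADARcdMUT effects had a squared correlation of 14.9% with the non-induced means, and the opposite transfer gave 8.53%. This measure ignores scale, uses the same elements and takes means over libraries, so it cannot be set against the shares within single libraries. Against the 250 ng libraries the background effects correlated with r = -0.139, with 12 of 32 signs alike.

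G at position 3 had the largest effect of all. It was 0.069, 0.059 and 0.050 in the non-induced libraries and 0.055, 0.048 and 0.041 in ADARcdMUT, above 0 in each. Over the 6 libraries it was 0.054 with an SE of 0.0043, and limma on the effects of these libraries gave an adjusted p of 1.84e-15 over the 32. G at position 7 followed with 0.038 and G at position 4 with 0.032, both above 0 in 6 of 6 (limma adjusted p = 7.01e-11 and 9.25e-09). In that fit 8 of the 32 effects (25%) were above 0 and 9 (28.1%) below 0 at an adjusted p under 0.05, and with the spread of all 12 libraries 8 (25%) were above and 15 (46.9%) below. The comparison of effects with 0 was added after the values had been seen. Every library was fitted on the same elements, so these p-values measure the spread between libraries and not the choice of elements. Several effects changed with another set of elements, as given below.

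The effects below 0 were led by A at position 4, at -0.033 (limma adjusted p = 6.72e-09), and C at position 5, at -0.027 (limma adjusted p = 4.48e-07). Both were below 0 in 6 of 6 libraries. C at position 8 was above 0 in 6 of 6, at 0.021, so that C was not low at every place. T at position 5 had 0.019.

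The effects were then fitted for each component of the level. G at position 3 had an effect of 0.056 on the log2 odds that a read was edited and of 0.00073 on the log2 number of edits per edited read (limma adjusted p = 0.908). Over all 32 effects, 10 (31.2%) were above and 13 (40.6%) below 0 for the share of edited reads, and 3 (9.38%) above and 1 (3.12%) below for edits per edited read, by limma at an adjusted p under 0.05 with the spread of all 12 libraries. G at position 7 and C at position 8 were among the latter, at 0.0083 and 0.0087 on the log2 number of edits per edited read (limma adjusted p = 0.00637 for each), beside 0.031 and 0.013 on the share. Restricting the fit to elements with at most 2 changes from the consensus gave G at position 3 an effect of 0.063, above 0 in 6 of 6. The order below it changed. G at position 1 came next with 0.034 in place of 0.013, then C at position 8 with 0.027 and G at position 7 with 0.023 in place of 0.038, each above 0 in 6 of 6. G at position 4 had 0.011, above 0 in 4 of 6. A at position 2 turned from -0.0072 (limma adjusted p = 0.0499) to 0.012 (limma adjusted p = 0.0139), and A at position 1 from 0.0052, which had not passed, to -0.014 (limma adjusted p = 0.00203), in fits with the spread of all 12 libraries.

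The background effects differed from those of the induced fusion in 26 of the 32 cases (81.2%) at 250 ng, 12 higher and 14 lower in the background, and in 23 cases (71.9%) at 25 ng, by limma at an adjusted p under 0.05. Both comparisons share the 6 background libraries. For G at position 3 the background exceeded 250 ng by 0.062 with an SE of 0.0058 (limma adjusted p = 1.53e-12), and for G at position 5 by 0.072 (limma adjusted p = 8.04e-14). The bases T at position 1 and T at position 8 lay the other way, at -0.044 and -0.060.

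Between ADARcdMUT and non-induced, 4 of the 32 effects (12.5%) differed by limma with the spread of all 12 libraries. A at position 1, T at position 6 and A at position 8 were higher in ADARcdMUT by 0.022, 0.023 and 0.021, and G at position 4 was lower by 0.021, with an adjusted p of 0.0245 for each. With the 6 background libraries alone none of the 4 passed, and none passed on the percent scale. Without non-induced replicate 1 there were 0 higher and 0 lower, and without non-induced replicate 2 there were 1 and 0. Without ADARcdMUT replicates 1, 2 and 3 in turn there were 1 and 1, 5 and 3, and 4 and 5. At an unadjusted p under 0.05, limma with the 6 libraries alone had 3 higher and 1 lower.

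Elements that differ by a single base allow a comparison in which all other bases are equal. For T3G there were 76 such pairs, and the median change of the log2 odds was 0.088 ± 0.031 in ADARcdMUT and 0.098 ± 0.0094 in non-induced (SD, n = 3), above 0 in 6 of 6 libraries. The element with G was the higher of the pair in 73.7% of pairs. In percent the median gain was 0.120 points in both groups. Pairs share elements with one another and are not independent.

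At position 7 the pairs did not set G apart. T7G gave 0.018 ± 0.038 in ADARcdMUT and 0.055 ± 0.018 in non-induced (SD, n = 3), above 0 in 5 of 6 libraries. T7A gave 0.022 and 0.027 and T7C gave 0.018 and 0.040, each also above 0 in 5 of 6, and the exception was ADARcdMUT replicate 1 for all 3 changes.

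Loss of the A at position 4 also went with a higher background. The changes A4T and A4C gave 0.051 and 0.038 in ADARcdMUT and 0.050 and 0.051 in non-induced, above 0 in 6 of 6 libraries, and A4G gave 0.018 and 0.053, above 0 in 5 of 6. At the free position 5, where the consensus accepts any base, 211 pairs gave -0.017 in both groups for A5C, below 0 in 6 of 6, and C5G gave 0.033 and 0.048, above 0 in 6 of 6. At 250 ng the changes at positions 3 and 4 went the other way, with -0.25 for T3G and -0.21 for A4C. For these changes the median direction in the background was thus opposite to that with the induced fusion.

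The T3G change depended on the base at position 5, a split chosen after the values had been seen. With T at position 5 the 19 pairs gave a median change of 0.22 ± 0.084 in ADARcdMUT and 0.20 ± 0.043 in non-induced (SD, n = 3). With A they gave 0.10 and 0.083, and with G 0.079 and 0.11, each above 0 in 6 of 6 libraries. With C they gave -0.026 ± 0.056 and -0.015 ± 0.038, above 0 in 3 of 6. The value with T exceeded the value with C in each of the 6 libraries. Leaving out pairs that hold one of the most extreme elements, the values with T were 0.18 and 0.12 over 14 pairs, and those with C were -0.016 and 0.010 over 17. The A4G change behaved differently, at 0.11 and 0.15 with G at position 5 and between -0.0070 and 0.053 with the other bases.

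The printed consensus pairs showed the split only in part. The T3G form of the consensus with T at position 5, TGGATATA, gave 2.23%, 2.23% and 2.30% in the non-induced libraries and 3.0%, 2.30% and 2.29% in ADARcdMUT, each above the value of TGTATATA in the same library. Its counterpart with C at position 5, TGGACATA, gave 1.78%, 1.97% and 1.58% in non-induced and 2.17%, 1.85% and 1.76% in ADARcdMUT, above its library median in 3 of 6. Against its own consensus form TGTACATA its mean was higher in ADARcdMUT (1.93% and 1.69%) and lower in non-induced (1.78% and 1.88%). With A at position 5, TGGAAATA was below TGTAAATA in ADARcdMUT (1.82% and 1.86%) and above it in non-induced (1.90% and 1.78%). With G, TGGAGATA was above TGTAGATA in ADARcdMUT (2.07% and 1.94%) and in non-induced (2.07% and 1.75%). The 10 elements that begin with TGGAT had a median level of 2.38% ± 0.171 in ADARcdMUT and 2.17% ± 0.0853 in non-induced, and 10 of 10 lay above the median element. The 10 that begin with TGGAC had 1.82% ± 0.149 and 1.75% ± 0.0876, and 1 of 10 lay above it.

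Further members of both sets, with a base after position 5 changed, are printed below. They are G forms of the same T3G pairs from which the split was chosen, so they illustrate it and do not test it. Capitals mark positions 3 and 5, and each element differs from TGGATATA or TGGACATA by 1 base.
begins TGGAT, A at position 7: tgGaTaaa
begins TGGAT, C at position 7: tgGaTaca
begins TGGAT, G at position 7: tgGaTaga
begins TGGAT, C at position 6: tgGaTcta
begins TGGAT, C at position 8: tgGaTatc
begins TGGAC, A at position 7: tgGaCaaa
begins TGGAC, C at position 7: tgGaCaca
begins TGGAC, G at position 7: tgGaCaga
begins TGGAC, C at position 6: tgGaCcta
begins TGGAC, C at position 8: tgGaCatc
The first of them, TGGATAAA, gave 2.01%, 2.41% and 2.09% in the non-induced libraries and 2.70%, 2.47% and 2.34% in ADARcdMUT. Its counterpart TGGACAAA gave 1.63%, 1.76% and 1.72% in non-induced and 1.97%, 2.0% and 1.66% in ADARcdMUT, lower in each library. The lowest TGGAT element was TGGATCTA in non-induced, at 1.91% ± 0.229 (SD, n = 3). The means of the 10 TGGAT elements ranged from 2.15% to 2.53% in ADARcdMUT and from 1.91% to 2.33% in non-induced. Those of the 10 TGGAC elements ranged from 1.67% to 1.94% and from 1.53% to 1.88%, so that the ranges of the sets did not overlap in either group. In the 250 ng libraries the TGGAT elements stood at 8.20% ± 0.142 (SD, n = 3), 0.063 above the library median as log2 odds, against 0.30 and 0.26 in the ADARcdMUT and non-induced groups.

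The reversed elements, in which the consensus is written from its last base to its first, were a second group with a raised floor. Their 88 members had a median relative level of 0.046 ± 0.040 in ADARcdMUT and 0.053 ± 0.0089 in non-induced (SD, n = 3), above 0 in 6 of 6 libraries, whereas the 756 double changes of the consensus lay at -0.003 and -0.005. Within the family the base at position 4 separated the members. The 13 elements that begin with ATAG had 2.21% ± 0.0621 in ADARcdMUT and 2.09% ± 0.159 in non-induced, and 13 of 13 lay above the median element. Those that begin with ATAA, ATAC and ATAT had 1.98%, 1.99% and 1.95% in ADARcdMUT and 1.90%, 1.84% and 1.88% in non-induced. The split by starting bases was chosen after the values had been seen.

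The recurrence over libraries can be counted element by element. Of the 1005 elements, 96 lay above the median in all 6 background libraries and 55 below it in all 6. A G at position 3, 4 or 7 was present in 68.8% of the former and 16.4% of the latter, against 31.9% of all elements. These positions were chosen after the values of the same libraries had been seen, so the shares describe that choice and do not test it. The reversed family, whose unchanged form holds G at position 7, contributed 19 of the 96. By the number of G at these 3 positions, the median level in ADARcdMUT was 1.93% for none, 1.97% for 1 and 2.04% for 2, and in non-induced 1.80%, 1.87% and 1.96%.

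Differences between the groups at single elements were few. In limma on the log2 odds relative to the library median, with the spread estimated from all 12 libraries, 2 elements were higher in ADARcdMUT at an adjusted p under 0.05, which is 0.199% of the 1006 tested, and 0 were lower. At an unadjusted p under 0.05 there were 61 higher and 73 lower. In limma with the 6 libraries alone these counts were 27 and 24, and 0 passed the adjusted threshold in either direction. Without centring on the library median, the fit of all 12 libraries had 2 higher (0.199%) and 0 lower, with 173 and 4 at an unadjusted p under 0.05. Without ADARcdMUT replicate 3, the library with the lowest share of edited reads, the uncentred count was 117 higher, and the centred counts were 11 higher and 10 lower. The uncentred count was 0 higher without ADARcdMUT replicate 2 or without non-induced replicate 1 and 5 without non-induced replicate 2. The centred counts were 5 and 1 without ADARcdMUT replicate 1, 2 and 3 without non-induced replicate 1, and 4 and 2 without non-induced replicate 2. The libraries of the groups did not overlap for 57 elements that were higher in ADARcdMUT relative to the median (5.67%) and for 53 that were lower (5.27%). Without centring these counts were 107 (10.6%) and 3 (0.298%).

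The called elements were TATAATTA and TTTACAAA, both AT-rich double changes of the consensus. TATAATTA gave 1.53%, 1.66% and 1.73% in the non-induced libraries and 2.41%, 2.39% and 2.05% in ADARcdMUT, with no overlap. Its difference relative to the median was 0.39 with an SE of 0.06 (limma adjusted p = 0.00577). TTTACAAA gave 1.49%, 1.69% and 1.54% against 2.29%, 2.24% and 1.88%, with a difference of 0.35, an SE of 0.05 and the same adjusted p by limma. With the 6 libraries alone the adjusted p was 0.199 for the first and 0.416 for the second. The fit of all libraries uses 1 spread per element for all groups. Replicate SDs within an element were 0.142 in ADARcdMUT and 0.110 in non-induced, against 0.0689 at 25 ng and 0.0363 at 250 ng. The SEs above thus draw on groups with a smaller spread than the compared ones. The fit of 6 also has fewer libraries, and which of these moved the p was not tested. Their printed forms carry no G.
higher in ADARcdMUT, first: tataatta
higher in ADARcdMUT, second: tttacaaa

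For the share of edited reads 1 element was higher in ADARcdMUT and 1 lower by limma, 0.0994% of those tested in each direction. TATAATTA was the higher one, at 0.35, and TGTAAGAT the lower one, at -0.35 with an SE of 0.06 (limma adjusted p = 0.0201). With the 6 libraries alone limma called 0 and 0, and the counts were 3 and 5 without ADARcdMUT replicate 1, 9 and 3 without ADARcdMUT replicate 3 and 0 and 0 without non-induced replicate 1. Without non-induced replicate 2 they were 0 and 1, and without replicate 3 of that group 1 and 0. For edits per edited read limma called 0 and 0, with 70 higher and 66 lower at an unadjusted p under 0.05, and 9 and 10 without ADARcdMUT replicate 2, 6 and 10 without ADARcdMUT replicate 3 and 3 and 1 without ADARcdMUT replicate 1.

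Abundant and rare elements were largely the same in both groups, with a shift by composition that is given below. The mean abundance of an 8-base element ran from 0.0096% to 0.229% of reads, and the log2 abundances of the groups correlated with r = 0.977 across the 1005 elements. The edgeR quasi-likelihood test called 0 elements in either direction, with 160 higher and 95 lower at an unadjusted p under 0.05, while DESeq2 called 78 higher (7.91%) and 16 lower (1.62%) in ADARcdMUT. Without ADARcdMUT replicate 3 the edgeR counts were 128 and 15.

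The largest abundance differences were in elements of extreme composition. CCCCCCCC took 0.130% of reads in ADARcdMUT and 0.094% in non-induced, and GGGGGGGG took 0.144% and 0.107%. ATTATATA took 0.032% and 0.043%. Abundance was higher with more G and C, by 0.30, 0.25 and 0.17 in log2 per added base in the ADARcdMUT libraries and by 0.13, 0.18 and 0.14 in the non-induced ones, with overlap (exact permutation p = 0.20). The median log2 difference, ADARcdMUT minus non-induced, was -0.15 for the 37 elements with no G or C and 0.16 for the 134 with 4. Across elements the abundance difference between the groups correlated with the number of G and C at r = 0.729 and with the difference in editing level at r = -0.177. The part of this composition shift in the editing differences was not tested.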

How the data were processed

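Recorder amplicons from HEK293T cells were sequenced, and the labels' extraction text names zebrafish embryos although source, cell line and design give HEK293T. The deposited tables hold, per element and library, counts of reads, of edited reads and of edits. They also hold percent values of editing and of reads, and an editing score, which the authors derived from the same counts. The counts were used, and the percent and score columns were recomputed from them as a check. No aligner, edit caller or genome build is named in the labels or file headers used here. These tables list elements with at least 1000 reads; 16 entries not listed in all 12 libraries were left out.

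Editing odds were edits over unedited adenosines (7 per read) with a pseudocount of 0.5, as log2, centred on the library's median element where stated as relative. limma 3.58.1 was run on all 1006 elements and 12 libraries with Benjamini-Hochberg adjustment, edgeR 4.0.16 (quasi-likelihood) on read counts, and DESeq2 1.42.0 as an alternative, in R 4.3.3. Abundance is reads of an element over all reads. Single values per library were compared by two-sided exact permutation tests. The scripts were tested on simulated data. For the editing level the simulated libraries spread less between replicates than these groups do, so that run does not bear on the element calls.

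Elements were named by rule: the consensus forms and EMPTY, the 10 highest and 10 lowest of a group, called elements whose libraries did not overlap, and the largest abundance differences. Members and lists were chosen with earlier results of these data known, and splits by starting bases, by the base at position 5, by G at positions 3, 4 and 7, by triplets and against composition of abundance were chosen after values were seen. Same-numbered replicates did not deviate together (correlations of -0.0443, -0.0121 and -0.0621), so replicates were not paired. The counting SE of the edited share of a median element was 0.230 to 0.260 points; no molecular identifiers are mentioned, so it covers counting error only.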

Additional observations from a re-analysis of the deposited data

How the results depend on the processing

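Counts of elements at an adjusted p under 0.05 are given as higher and lower in ADARcdMUT. With the 6 background libraries alone, limma called 0 higher for the level, 0 higher for the relative level, 0 and 0 for the share of edited reads and 0 and 0 of the position effects. The arcsine scale gave 1 higher for the level and 0 for the relative level, a quasi-binomial model gave 0 higher, at least 5000 reads gave 0 lower for the share, and the percent scale gave 0 and 0 position effects. DESeq2 gave 78 and 16 for abundance. With the replicate number as a block, the counts were 2 and 0 for the level, 2 and 0 for the relative level, 1 and 1 for the share, 0 and 0 for edits per edited read, 0 and 0 for abundance and 3 and 1 for position effects, so the block changed no count. Leaving out 1 replicate at a time gave 0 to 117 and 0 to 1 for the level, 2 to 11 and 1 to 10 for the relative level, 0 to 9 and 0 to 5 for the share, 0 to 9 and 0 to 10 for edits per edited read, 0 to 128 and 0 to 15 for abundance, and 0 to 5 and 0 to 5 for position effects. No library median or base slope compared between the groups reversed its direction under these alternatives. The balance of counts did change. For the relative level it went from 2 and 0 to 2 and 3 without non-induced replicate 1. For position effects it went from 3 and 1 to 4 and 5 without ADARcdMUT replicate 3. Of the position effects against 0, A at position 2 was below 0 at -0.0072 and above 0 at 0.012 with at most 2 changes from the consensus, an alternative chosen after seeing the data, and passed the limma threshold in both. When 1 replicate was left out, the difference in the median level was 0.0661 to 0.186 points, in the share of edited reads 0.00811 to 0.343 points and in edits per edited read 0.0226 to 0.0998. A median element had 10218 to 12253 reads per library.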

Other observations

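The highest element of a library was one of the shared high elements in 5 of the 6 background libraries. Those high elements were ranked on group means that include these libraries, so this was partly built in. ATAGCTGT was the highest in non-induced replicate 1 and in ADARcdMUT replicate 2, ATTGATGT in non-induced replicate 2 and in ADARcdMUT replicate 3, and ATAGTTGT in non-induced replicate 3. ADARcdMUT replicate 1 differed. CATATATA was its highest element, at 3.56%, with 1.86% and 1.61% in the other ADARcdMUT libraries and 1.66%, 1.55% and 1.83% in the non-induced libraries. The mean of this element relative to the library median was 0.31 higher in ADARcdMUT with an SE of 0.18 (limma adjusted p = 0.445), so that it was not called. These elements were chosen after their values were seen.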
